A study of Mus musculus with 4 samples.

Results

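The Ikaros, TCF and BACH lymphoid factors examined here are the transcription factor genes Ikzf1, Ikzf2, Ikzf3, Ikzf4, Ikzf5, Tcf7, Lef1, Bcl11b, Bach2 and Bcl6. Their m6A peaks were found by a fixed rule, as every distinct peak of the list whose gene identifier was the mouse Ensembl gene of one of the 10 symbols. This gave 17 of 20727 peaks, in 7 of the 10 genes. Ikzf5, Tcf7 and Bcl6 had 0 peaks under their own identifiers.

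The peaks came from methylated RNA immunoprecipitation sequencing (MeRIP-seq), in which poly(A) RNA is fragmented and an antibody to N6-methyladenosine (m6A) enriches the fragments that carry the mark. Wild-type C57BL/6 splenic natural killer (NK) cells gave 2 m6A immunoprecipitates, and 2 input RNA libraries had no antibody. All 4 libraries came from cells expanded in the mice with the IL-15 expression plasmid pLIVE-IL-15, so resting NK cells were not measured, and the labels give no age and no animal for a library. The list holds 1 fold enrichment (immunoprecipitate over input) and 1 log10 of the peak-calling p for each peak and 0 values per library, so depth and replicate error are unknown and the values below are descriptions without a test.

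m6A is written on nuclear RNA by the METTL3 methyltransferase complex, mostly at the consensus DRACH (where D stands for A, G or T, R for A or G, and H for A, C or T), and it is typically dense around stop codons and in 3′ untranslated regions (UTRs). Reader proteins of the YTH family bind the mark and can change the decay or translation of the mRNA. The Ikaros family proteins bind DNA through one group of zinc fingers and each other through a second group at the C terminus, and Ikaros and Aiolos (Ikzf3) are known in lymphocyte and NK cell development. TCF-1 (Tcf7) and LEF1 are HMG-box factors that can bind beta-catenin, BCL11B is a zinc finger factor of T lineage commitment, and BACH2 and BCL6 are repressors with a BTB domain.

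The sequences below, from the GENCODE transcripts on GRCm38 and equal to the genome at those positions, show what the peaks of each gene contain. They are written 5′ to 3′ on the strand of the named gene. The first set comes from peaks of Ikzf1, Ikzf4 and Bach2 and holds the GGAC-bearing DRACH site nearest the peak centre, with the 5 bases of the site in capitals.
Ikzf1 3′ UTR, chr11:11771437-11771465, plus strand: gttcaagtgcagGGACTgagttcaccaag
Ikzf4 3′ UTR, chr10:128633461-128633489, minus strand: atctcctctctgGGACCtttcagcccggc
Bach2 5′ UTR, chr4:32238987-32239015, plus strand: tcagtgaccccaGGACCgcccaccacgcc
Bach2 last coding bases, chr4:32580218-32580246, plus strand: gtctgtgacggtGGACTtctgccaggaaa
Bach2 3′ UTR, chr4:32581872-32581900, plus strand: catcgaggcataGGACAgataccgtagga

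The next set comes from peaks that held DRACH sites but none with GGAC, again with the site nearest the centre in capitals. They include the most significant peak of Ikzf1 and of Bach2, and the single peak of Ikzf2.
Ikzf1 3′ UTR, chr11:11771788-11771816, plus strand: aaagatggctccAAACCctacccccgacc
Ikzf2 3′ UTR, chr1:69536653-69536681, minus strand: ggtacattttaaAAACAtagcttcctcgg
Bach2 3′ UTR, chr4:32581281-32581309, plus strand: gaaaaaaaaaaaAAACAatcttgccaaat
Bcl11b 3′ UTR, chr12:107912671-107912699, minus strand: cttgtaatttttTAACTgtaagcttgtcc

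The last set comes from the Lef1 peaks and the coding peak of Bcl11b, which held 0 DRACH sites on the strand of the gene. It shows the centre of the wider Lef1 peak, the Lef1 start codon just past that peak (in capitals), and the whole Bcl11b coding peak with its one GGAC, which is followed by G, in capitals.
Lef1 peak centre, chr3:131111387-131111416, plus strand: ccaactcccccacctcacatcgaccctccc
Lef1 start codon, chr3:131111445-131111474, plus strand: cggagcggagattacacagccgccgggATG
Bcl11b coding peak, chr12:107916209-107916298, minus strand: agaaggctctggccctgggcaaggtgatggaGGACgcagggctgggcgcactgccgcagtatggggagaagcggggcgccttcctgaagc

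A peak was listed for 7 of the 10 factors (70%), against 46.3% of all 21938 protein-coding genes. The list holds no level of any RNA, and in bulk RNA fewer cells of a type and less RNA per cell cannot be told apart. The Ikaros family had 7 peaks in 4 of its 5 genes, Lef1 and Bcl11b had 2 each, and Bach2 had 6. Having 6 or more peaks was uncommon, at 1.12% of the protein-coding genes with a peak.

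The 17 peaks had fold enrichments from 1.14 to 45.5, with a median of 3.32 and an interquartile range from 1.89 to 5.69. The median over all peaks was 2.66 (1.73 to 9.48). A fold enrichment of at least 5, which the study used to choose genes and which is called strong here, was reached by 5 of 17 peaks (29.4%), against 34.6% of all peaks. They belonged to Ikzf4, Bcl11b and Bach2, which are 3 of the 7 genes with a peak (42.9%), against 43.4% of protein-coding genes with a peak. A peak-calling p under 0.001 was listed for 10 of 17 peaks (58.8%), against 61.5% of all peaks. By these shares the factors lay close to the whole list, while their median fold enrichment was somewhat higher. Over the 18235 peaks of protein-coding genes alone, the median was 2.37. Of those peaks 29.5% were strong and 62.3% had a p under 0.001.

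**Figure D1:**
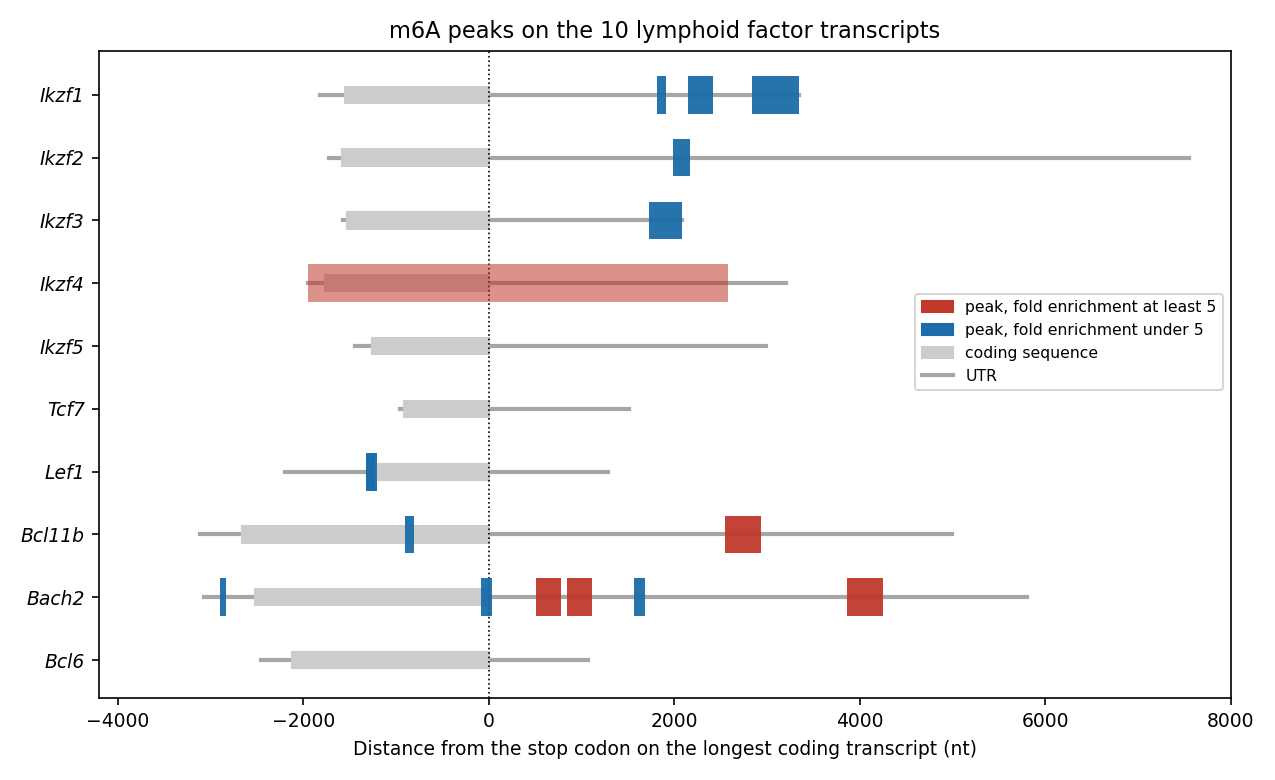
Position of the peaks on the longest coding transcript of each of the 10 genes, with the stop codon at 0 and distances in nt on the horizontal axis. Wide grey bars are coding sequence, thin lines are UTRs, red bars (paler at Ikzf4, where the transcript shows through) are peaks with a fold enrichment of at least 5 and blue bars are the other peaks, and the Ikzf3 peak on a non-coding isoform has no place here. The Ikzf1, Ikzf2 and Ikzf3 peaks lie far past the stop codon, the Ikzf4 peak covers 87.8% of its transcript, and Ikzf5, Tcf7 and Bcl6 have no bar.

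Ikzf1 (ENSMUSG00000018654, chromosome 11, 11685003 to 11772926, plus strand) encodes Ikaros, the founding member of the family. All 3 of its peaks mapped to the last exon of the longest coding transcript, exon 8 of 8, within the 3′ UTR, and all had a low fold enrichment and a small p. The peak at 11771400 to 11771489 was enriched 1.14-fold (log10 p -3.53). The peak at 11771729 to 11771998 was enriched 1.43-fold (log10 p -24.0), and was the most significant of the 17. The peak at 11772417 to 11772926 was enriched 1.79-fold (log10 p -10.9). Only 0.429% of all peaks had a lower fold enrichment than the first, while 88.5% of all peaks were less significant than the second. The centres lay 1863, 2282 and 3090 nt past the stop codon, and the gaps between neighbouring peaks were 239 and 418 nt. The last peak ended on the last base of the transcript and was held by 1 of 6 coding isoforms, and the other pair by 2 of 6. Together they covered 870 nt, or 26% of the 3′ UTR.

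Ikzf3 (ENSMUSG00000018168, chromosome 11, 98464902 to 98546031, minus strand) encodes Aiolos. Its 3′ UTR peak at 98464902 to 98465262 resembled the last Ikzf1 peak in value and place. It was enriched 1.89-fold (log10 p -10.8), and it too ended on the last base of the transcript, in exon 8 of 8, with its centre 1904 nt past the stop codon. The second Ikzf3 peak, at 98484359 to 98484478, was enriched 2.10-fold (log10 p -3.13). It overlapped 0 nt of the coding isoform and 1 non-coding isoform, so it lies in an intron of the Aiolos mRNA. Among all peaks of protein-coding genes, 9.85% overlapped no exon of a coding isoform.

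Ikzf2 (ENSMUSG00000025997, chromosome 1, 69531214 to 69687245, minus strand) encodes Helios, known in regulatory T cells. It had the longest 3′ UTR of the factors (7554 nt) but a single peak of 181 nt, or 2.40% of that UTR. The peak, at 69536601 to 69536781, was enriched 3.79-fold (log10 p -1.31), close to the weakest value in the list (-1.3). The same pair of values was listed for 199 peaks, whereas the pair of each of the 2 most significant Ikzf1 peaks was listed for at most 2. The span of the antisense gene Gm29114 crosses the peak, but 0 nt of its exons do.

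Ikzf4 (ENSMUSG00000002578, chromosome 10, 128630843 to 128645991, minus strand) encodes Eos, a further Ikaros relative of regulatory T cells. Its single peak differed from those of the other members in extent and fold. It spanned 14520 nt of the genome, from 128631472 to 128645991, and covered the first 4521 nt of the 5150 nt transcript, with the whole coding sequence inside. The fold enrichment was 45.5, higher than in 94.3% of all peaks, and the log10 p was -9.90. That pair of values was listed for 34 peaks. The authors' region label was 5′ UTR, while the centre of the exonic part lay 316 nt past the stop codon. An exon of the lincRNA gene Gm26876 on the opposite strand shared 37 nt with the span.

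Ikzf5 encodes Pegasus, a distant member of the family, and had no peak under its identifier. A peak of 61 nt lay in its 3′ UTR all the same (chromosome 7, 131388981 to 131389041), 2626 nt past the Ikzf5 stop codon by its centre. The list assigned it to Fgfr2, whose annotated span contains Ikzf5, but it overlapped 0 nt of Fgfr2 exons and 61 nt of Ikzf5 exons. Its fold enrichment was 1.73 and its log10 p -2.12, and it held 1 DRACH site, shown here with 12 bases on each side on the strand of Ikzf5.
Ikzf5 3′ UTR, chr7:131389000-131389028, minus strand: tttgcagatgttTGACAaagggaatatta

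**Figure D2:**
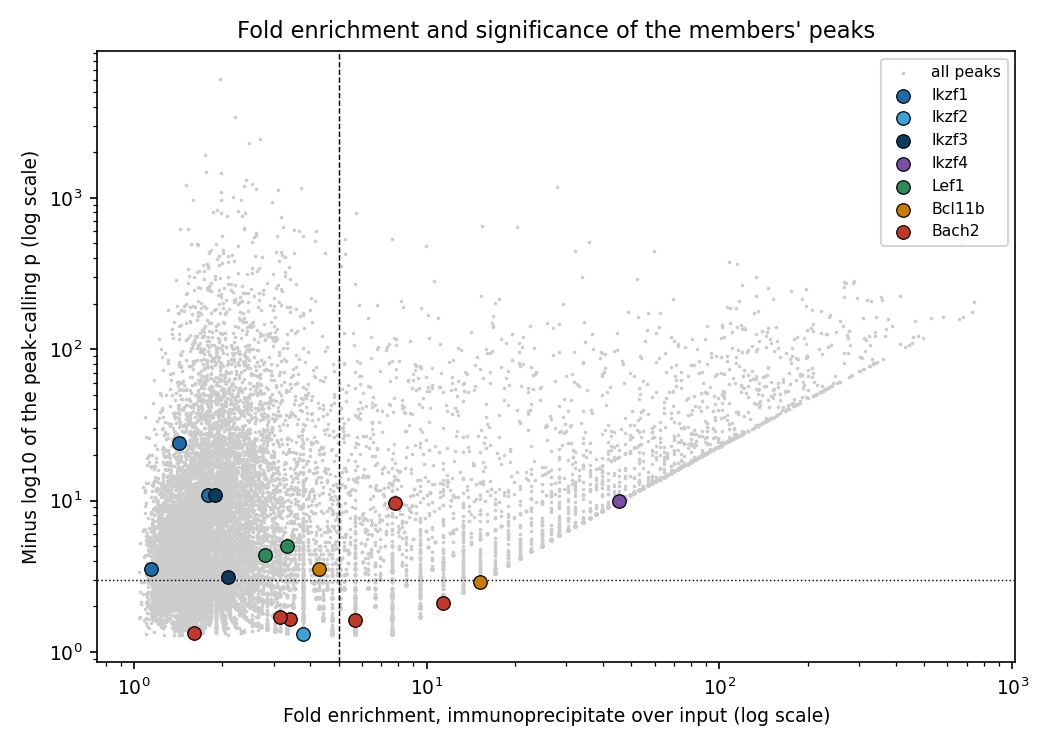
Fold enrichment (horizontal, log scale) against minus log10 of the peak-calling p (vertical, log scale) for all 20727 peaks in grey and for the 17 peaks of the factors in colour by gene. The dashed line marks a fold enrichment of 5 and the dotted line a p of 0.001. Ikzf1 and Ikzf3 sit at low fold and above the dotted line, and 5 of the 6 Bach2 peaks sit below it.

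Tcf7, which encodes TCF-1, had no peak of its own, and neither did Bcl6, which encodes the repressor of germinal centre B cells and follicular helper T cells. The genes without a peak did not lack DRACH sites. Their longest coding transcripts held 58 (Tcf7) and 64 (Bcl6) DRACH sites, or 23.5 and 18.2 per kb, and that of Ikzf5 held 89, or 20.1 per kb. The 7 genes with a peak had 15.8 (Bcl11b) to 21.7 (Ikzf2) per kb of transcript. The 3′ UTRs of Tcf7 (1512 nt) and Bcl6 (1073 nt) were among the shortest, with that of Lef1 (1287 nt). A peak assigned to Ppp2ca, enriched 20.9-fold (log10 p -4.18), ran for 319633 nt of the genome and crossed 2328 nt of Tcf7 coding-isoform exons. Since it also held 7490 nt of Ppp2ca exons, its reads cannot be placed on Tcf7.

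Lef1 (ENSMUSG00000027985, chromosome 3, 131110471 to 131224356, plus strand) was the only one of the 7 genes with peaks solely in the 5′ UTR. Both peaks lay in exon 1 of 12, and the narrower one lay wholly inside the other, so they describe a single region. The wider peak, at 131111341 to 131111461, was enriched 2.81-fold (log10 p -4.38). The narrower peak, at 131111346 to 131111436, was enriched 3.32-fold (log10 p -5.03). The wider peak ended 10 nt before the start codon, and both were held by 3 of 4 coding isoforms. Neither held a DRACH site on the strand of Lef1, although 90% of all peaks placed on a coding transcript held at least 1. Exons of the antisense gene Gm43352 covered all 121 nt of the wider peak, and on that strand it held 3 DRACH sites, among them the GGACT shown here in capitals.
Gm43352 strand at Lef1, chr3:131111354-131111382, minus strand: ctgagtgcgggaGGACTgtgaatggaagc
The list gives no strand for reads, so reads of Lef1 and of Gm43352 cannot be told apart there.

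Bcl11b (ENSMUSG00000048251, chromosome 12, 107910403 to 108003602, minus strand) had 2 peaks in its last exon, exon 4 of 4, with 3351 nt between them. The coding peak, at 107916209 to 107916298, was enriched 4.27-fold (log10 p -3.51) and was held by 3 of 3 coding isoforms. It covered codons 586 to 616 of 884. A search of the translated sequence for the C2H2 zinc finger pattern gave 6 matches, and 0 of them overlapped those codons, which lie between the matches that end at codon 478 and start at codon 788. The 3′ UTR peak, at 107912468 to 107912857, was enriched 15.2-fold (log10 p -2.91), a pair of values listed for 226 peaks. It lay 2737 nt past the stop codon by its centre and was held by 1 of 3 coding isoforms. The stronger of the pair by fold was thus the less significant.

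Bach2 (ENSMUSG00000040270, chromosome 4, 32238804 to 32586108, plus strand) had the most peaks of the factors. They were spread from the 5′ UTR to the distal 3′ UTR, and most had a moderate fold enrichment and a weak p. In the 5′ UTR, in exon 1 of 7, the peak at 32238984 to 32239043 was enriched 3.41-fold (log10 p -1.66). The peak at 32580210 to 32580330 crossed the stop codon, with its centre 26 nt before it, and was enriched 1.60-fold (log10 p -1.33). It was the only one of the 16 placed peaks with its centre within 200 nt of the stop codon (6.25%), against 22.3% of all placed peaks. The stop codon itself stands here in capitals.
Bach2 stop codon, chr4:32580281-32580310, plus strand: gaaagattatgccTAGccggtgtgatcagc
The GGACT printed above for this peak lies 64 nt before the stop codon.

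Further along the Bach2 3′ UTR, in exon 7 of 7, there were 4 peaks. The peak at 32580809 to 32581079 was enriched 11.4-fold (log10 p -2.09), a pair listed for 532 peaks. Its neighbour at 32581138 to 32581408, 58 nt further on, was enriched 7.80-fold (log10 p -9.69), a pair listed for this peak alone. It was the only Bach2 peak with a p under 0.001. The peak at 32581857 to 32581977 was enriched 3.16-fold (log10 p -1.69), and the one at 32584162 to 32584551 had 5.69 and -1.63, a pair listed for 200 peaks. Their centres lay from 648 to 4060 nt past the stop codon. In all, Bach2 peaks covered 18.7% of its 3′ UTR of 5808 nt.

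The Ikaros family had the lower median fold enrichment and Bach2 the fewer peaks with a small p, although Ikzf4 and Ikzf2 stood apart from Ikzf1 and Ikzf3. The 7 Ikaros family peaks had a median fold enrichment of 1.89, and 6 of them had a p under 0.001. The 6 Bach2 peaks had a median of 4.55, and 1 had a p under 0.001. The Ikzf4 peak was higher in fold than every Bach2 peak, and the Ikzf2 peak had a weaker p than every Bach2 peak. Of the 5 strong peaks, those of Ikzf4, Bcl11b and 2 of the 3 of Bach2 had values shared with 34 to 532 peaks of the list, while 7 of the 17 peaks (41.2%) had a pair of values found nowhere else, against 53.6% of all peaks.

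In position, 11 of the 16 peaks that could be placed on the longest coding transcript had their centre in the 3′ UTR (68.8%). Among all placed peaks the share was 56.5%. The 95% Wilson interval, 44.4 to 85.8, gives counting error only and takes the 16 peaks as independent, although they come from 7 genes. The Ikzf4 peak holds the whole coding sequence, so its centre is only a midpoint. Without that peak the share was 10 of 15 (66.7%). The 5′ UTR held 3 centres (18.8%), from 2 peaks of Lef1 and 1 of Bach2, against 9.94% of all placed peaks. The 2 Lef1 peaks are nested, so this share counts a single region 2 times. The coding sequence held 2 (12.5%), those of Bcl11b and of the Bach2 stop codon, against 33.6% of all placed peaks. All 11 centres in the 3′ UTR were more than 200 nt past the stop codon, as were 78.9% of the 3′ UTR centres of the whole list. The nearest were those of Ikzf4 (316 nt), whose peak itself contains the stop codon, and Bach2 (648 nt).

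**Figure D3:**
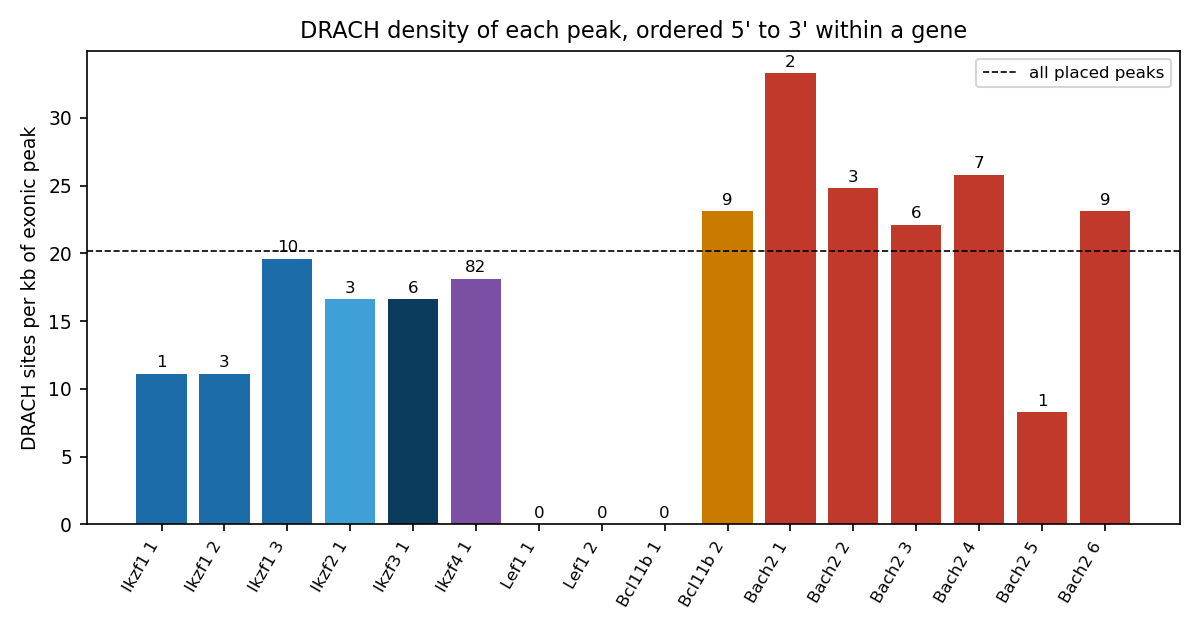
DRACH sites per kb of exonic peak (vertical axis, from 0) for the 16 placed peaks, ordered 5′ to 3′ within each gene and coloured by gene, with the number of sites above each bar. The dashed line is the density over all placed peaks, 20.2 per kb. Of 16 bars, 3 are at 0 (both of Lef1 and the coding peak of Bcl11b), and 5 of the 6 Bach2 bars stand above the line.

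DRACH sites were about as dense in these peaks as elsewhere in the list. The 16 placed peaks held 142 sites in 7859 nt (18.1 per kb), against 20.2 per kb over all placed peaks. Most of the sites (82) came from the long Ikzf4 peak, and without it there were 60 sites in 3338 nt (18.0 per kb). The 6 Bach2 peaks held 28 sites (22.7 per kb) and the 3 Ikzf1 peaks 14 (16.1 per kb). Of the 142 sites 25 were GGAC-bearing (17.6%), against 17.7% in all placed peaks, and 19 of the 25 lay in the Ikzf4 peak. Without that peak the share was 6 of 60 (10%).

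The proteins that work with these factors were examined through 4 lists. For comparison, 46.3% of all protein-coding genes had a peak, and 43.4% of those had a strong one. Of 16 subunits of the NuRD and SWI/SNF chromatin complexes, which Ikaros and BCL11B recruit, 15 had a peak and 7 a strong one. Hdac2, a histone deacetylase, had none. The most significant peaks were at Gatad2b (fold enrichment 36.6, log10 p -125), Mbd2 (51.2 and -66.9) and Mta2 (2.15 and -38.1), and those of Gatad2b and Mbd2 were also the highest in fold. All are NuRD subunits. The Gatad2b peak ran from 90342175 to 90349486 on chromosome 3 and overlapped 262 nt of coding-isoform exons. The Mbd2 peak overlapped 566 nt of them. Some other strong genes of this list had their highest-fold peak on 0 nt of coding-isoform exons.

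Of 12 beta-catenin and Groucho partners of TCF-1 and LEF1, 9 had a peak and 5 a strong one. Ctnnb1 itself, which encodes beta-catenin, had none, and neither had Tle4 and Tcf7l1. The Groucho relatives Aes (1.46 and -71.5) and Tle3 (2.11 and -40.0) and the coactivator Pygo2 (2.43 and -11.5) had the most significant peaks, each in the 3′ UTR by the authors' label. The highest fold enrichments were 17.1 (log10 p -3.40) at Bcl9, a beta-catenin coactivator, and 9.48 (-3.14) at Tle1, a Groucho corepressor. Its relatives Tle2 and Tle3 were tied with Tle1 at 9.48, each with a log10 p of -1.69. The Bcl9 peak overlapped only 32 nt of coding-isoform exons. Those of Tle1, Tle2 and Tle3 at 9.48 overlapped 240, 466 and 0 nt.

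Of 12 MAF, corepressor and related partners of BACH2 and BCL6, 9 had a peak and 2 a strong one. The small MAF genes Maff (3.64 and -26.7) and Mafk (1.96 and -23.1), whose proteins pair with BACH2, and Ncor1 (1.67 and -17.5), a corepressor bound by BCL6, had the most significant peaks, all in the 3′ UTR. The highest fold enrichments were 11.4 (-2.09) at Bcl6b, the nearest relative of Bcl6, and 7.59 (-1.36) at Batf, an AP-1 family factor. The Bcl6b peak overlapped 630 nt of coding-isoform exons and that Batf peak 0 nt. Mafg, Prdm1 and Irf4 had no peak.

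All 24 genes of the list of other lymphoid lineage factors had a peak, and 13 had a strong one. For several of the strong genes the peak of highest fold overlapped 0 nt of coding-isoform exons, against 9.85% of all peaks of protein-coding genes. Some of these peaks also had pairs of values listed for as many as 845 peaks. Klf2, a factor of lymphocyte trafficking (2.37 and -630), Id2, an inhibitor of E proteins needed for NK cells (2.22 and -142), and Ets1, a factor of NK cell development (6.46 and -121), had the most significant peaks. The highest fold enrichments were 125 (-28.9) at Ebf1, a B lineage factor, and 108 (-73.4) at Myb, a factor of haematopoietic progenitors. The Myb peak overlapped only 13 nt of coding-isoform exons. The Ebf1 peak ran from 44617317 to 45008091 on chromosome 11 and overlapped 5981 nt of them. In the order given, 93.8, 75, 75 and 100% of the genes of the 4 lists had a peak, against 46.3% of protein-coding genes. Of the genes with a peak, 46.7, 55.6, 22.2 and 54.2% had a strong one, against 43.4%. Median fold enrichments were 2.03, 2.71, 2.08 and 2.38 in the 4 lists in the order given, beside 3.32 in the Ikaros, TCF and BACH factors. No test of these differences was made.

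**Figure D4:**
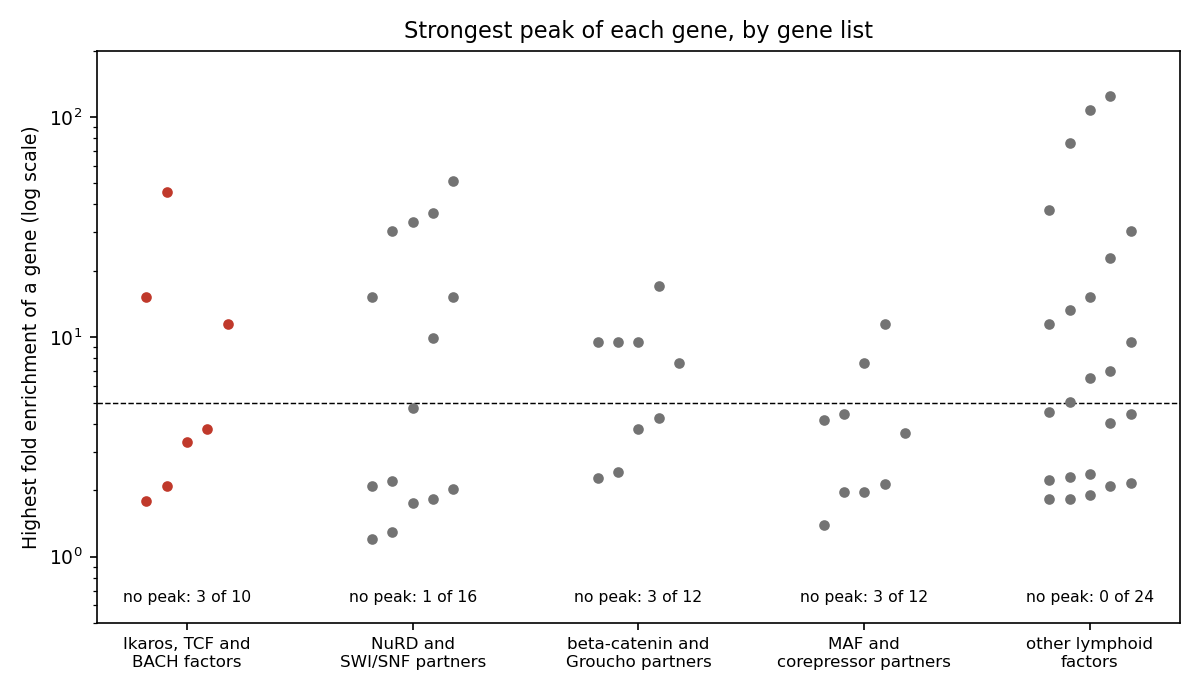
Highest fold enrichment of each gene with a peak (vertical, log scale), by gene list, with the Ikaros, TCF and BACH factors in red and the number of genes without a peak below. Horizontal offsets only separate points, and the dashed line marks a fold enrichment of 5. Strong peaks occur in 3 of 10 factors and in 7 of 16, 5 of 12, 2 of 12 and 13 of 24 genes of the other lists. Among all protein-coding genes with a peak, 43.4% have a strong one. Some of the strong points of the other lists are peaks that overlap 0 nt of coding-isoform exons.

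Marker genes of the labelled cell type and of other splenic cells were examined because Tcf7, Lef1, Bcl11b and Bach2 are also T cell genes and Bach2 and Bcl6 are also B cell genes. All 8 NK cell markers (Ncr1, Klrb1c, Klrk1, Il2rb, Eomes, Tbx21, Gzmb and Prf1) had a peak, with fold enrichments from 1.12 to 2.53. Of 7 T cell markers, Cd3d, Cd3e and Cd3g had a peak (1.39 to 31.6), and Cd4, Cd8a, Cd8b1 and Cd5 had none. Of the 8 T cell marker peaks 6 overlapped coding-isoform exons, and the one at 31.6, of Cd3g, overlapped 0 nt of them. Of 5 B cell markers, Cd79a, Cd79b and Pax5 had one (2.69 to 75.9), and Ms4a1 and Cr2 had none. All 6 myeloid markers had a peak (1.12 to 3.56), as did 2 of 4 erythroid markers, both of them globin genes (1.44 to 2.69). The myeloid set includes Itgam, which encodes CD11b, a protein the paper also uses to stage NK cell maturation. The lowest log10 p of Itgam was -12.7. Over all protein-coding genes, 46.3% had a peak. The lowest log10 p was -316 among NK cell, -46.8 among T cell and -27.6 among B cell marker peaks. It was -322 among myeloid and -2440 among erythroid marker peaks, so peaks of non-NK markers were among the most significant. A peak is no level, and the part of other cells in the peaks of Lef1, Bcl11b and Bach2 was not tested.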

How the data were processed

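Per the labels, 2 m6A immunoprecipitates and 2 input libraries of splenic NK cells were sequenced. The authors trimmed reads, aligned them with HISAT2 (GRCm38 in the submitters' processing notes), called peaks with exomePeak and annotated them with ChIPseeker; how replicates were combined is not stated. The deposited fold enrichment is a ratio of immunoprecipitate to input, and the deposited significance is a score, the log10 of an unadjusted p. Of 20751 rows, 24 exact repeats were dropped, 0 of them in the 10 genes.

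Gene models were GENCODE M21. For 15721 peaks, the midpoint of the bases shared with exons gave a position on the gene's longest coding transcript. "Near the stop codon" means within 200 nt. DRACH was counted on the transcript strand with overlaps, C2H2 fingers as 2 cysteines 2 to 4 residues apart, 12 residues, then 2 histidines 3 to 5 apart. Placement and motif counts were tested on simulated data and recovered 2000 of 2000 peaks and 500 of 500 sequences. Python 3.11.15, Biopython 1.88, SciPy 1.17.1 and samtools 1.23.1 were used, and 22 of 22 sequences equalled the genome. No hypothesis test was run.

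The members and lists were chosen with earlier results of these data known. All 10 members are named. For each partner list the 3 genes with the most significant peak and the 2 with the highest fold enrichment are named. Fgfr2, Ppp2ca, Gm29114, Gm26876 and Gm43352 were named after their values were seen. Tle2 was named for its tie with Tle1. Some markers and peak sequences are not reported here.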

Additional observations from a re-analysis of the deposited data

How the results depend on the processing

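Over 7 results and 28 alternatives, 25 values stayed within 1.5 times the reported one (counts, medians and densities) or within its 95% Wilson interval (shares), and 3 moved further. For the shares this rule could hardly fail, since their intervals were wide (44.4 to 85.8 and 1.11 to 28.3). A 400 nt window raised the share near the stop codon from 6.25 to 12.5% and still counted as staying. Asking for a p under 0.001 left 10 of the 17 peaks, which by construction leaves out 5 of the 6 Bach2 peaks. The number of genes with a strong peak rose from 3 to 5 when a fold enrichment of at least 3 was enough. GGAC in place of DRACH gave 3.94 sites per kb, since it is a rarer word. Counting peaks of other genes over coding exons (9 genes with a peak) and leaving out the Ikzf4 peak were chosen after seeing the data.

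No paired analysis was possible because the list gives no value per library, although the labels number the libraries 1 and 2 in each group. The omission of each replicate was not run for the same reason. Without read totals, no limit from sequencing depth can be given for the peaks with a weak p.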
